A study of Homo sapiens with 12 samples.

Results

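The genes of the proteasome subunits were followed across 6 groups of libraries from HCT116 cells in which NFYA was targeted with siRNAs. Members were the protein-coding genes whose symbols are PSMA, PSMB, PSMC, PSMD, PSME, PSMF or PSMG with a number. The GENCODE 29 annotation holds 48 such symbols, 47 of them matched a row among the 63677 listed genes, and 45 had enough reads to be tested. PSMB3 is not analysed here, because its identifier matched no row. PSMA8, an alpha subunit of the testis, and PSMB11, the beta subunit of the thymus, had 0 reads in all 12 libraries, where 3 reads would amount to 0.0595 to 0.0849 CPM (counts scaled to the size and composition of each library). PSMC3IP and PSME3IP1 begin alike but encode interacting proteins and were not counted.

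HCT116 is an epithelial line from a human colon carcinoma, and NFYA encodes the subunit of the transcription factor NF-Y that recognises CCAAT boxes in promoters. The groups, of 2 libraries each, were mock, which received transfection reagent alone, siControl, which received a non-targeting sequence, siTotal1 and siTotal2, with different sequences directed at all transcripts of NFYA, and siLong1 and siLong2, with different sequences directed at those transcripts of NFYA whose 3′ untranslated region is long. All cells were wild-type HCT116 given Lipofectamine 2000, siRNAs were at 62.5 nM, and polyadenylated RNA was taken after 72 h. Libraries of a group are biological duplicates per the design text, and p-values here rest on how far duplicates lie apart. They do not take in the variation among siRNA sequences, with 2 sequences used for each target.

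The proteasome degrades proteins that carry ubiquitin chains. Its barrel, the core particle, has outer rings of alpha subunits that gate the entry and inner rings of beta subunits, of which PSMB5, PSMB6 and PSMB7 carry the catalytic sites. The regulatory particle caps the barrel: its base holds the ATPases PSMC1 to PSMC6, which unfold substrates, with the scaffold subunits PSMD1 and PSMD2 and the ubiquitin receptor PSMD4, and its lid holds the deubiquitinating enzyme PSMD14. Interferon induces the alternative catalytic subunits PSMB8, PSMB9 and PSMB10 of the immunoproteasome and the activator subunits PSME1 and PSME2, which favour the making of peptides for antigen presentation. When proteasome capacity falls short, the transcription factor NRF1 (gene NFE2L1) raises the subunit genes together through antioxidant response elements.

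Libraries held 35604197 to 49746637 counted reads, and 17730 genes were tested. NFYA, the targeted gene, stood at 55.2 and 59.15 CPM in mock, 57.4 and 57.5 in siControl, 47.9 and 46.8 in siTotal1, 46.0 and 46.15 in siTotal2, 47.65 and 46.5 in siLong1 and 69.7 and 70.15 in the libraries labelled siLong2. It was below both siControl libraries in siTotal1, siTotal2 and siLong1 and above them in the libraries labelled siLong2, which goes against their label, so a direction given for siLong as a whole rests partly on libraries in which NFYA was higher. Against siControl, NFYA fell by 0.28, 0.32 and 0.29 on the log2 scale in siTotal1, siTotal2 and siLong1, with a rise of 0.28 in siLong2 as labelled (SE 0.05 each, edgeR's quasi-likelihood test, largest Benjamini-Hochberg adjusted p = 1.7e-05). NFYB and NFYC, which encode its partners, rose by 0.77 and 0.72 in siTotal against siControl. Epithelial markers (7 of 7 tested) summed to 3449 to 5687 CPM, fibroblast markers (5 of 6 tested) to 26.3 to 45.1 CPM and blood markers (2 of 6 tested) to 0.554 to 1.67 CPM.

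Expressed per kilobase of merged exon length, the level of the constitutive subunits was high and that of the immunoproteasome subunits low. The highest mean levels per kb over the 12 libraries were those of the core particle genes PSMA7 (135 CPM per kb), PSMB4 (127), PSMB1 (121), PSMB6 (119), PSMB5 (116) and PSMB7 (111), followed by PSMD2 (105.5), a scaffold subunit of the base. Merged length takes in all annotated exons of a gene, and this order depends on it. PSMA4 stood at 266 CPM but 38.0 CPM per kb, with 6996 merged bases, and PSMA7 at 236 CPM, with 1750. The order is thus not a measure of subunit abundance. The immunoproteasome genes PSMB9, PSMB10 and PSMB8 stood at 0.998, 0.765 and 0.126 CPM per kb, and PSMB8 had 174 reads in all 12 libraries together. PSMA2 and PSMA6 were also far below the other alpha subunits on this scale, at 1.08 and 2.66 CPM per kb. In GENCODE 29, 14.6% and 14.1% of their exon bases lie within another gene of the same strand, as do 24.7% for PSMA1, 34.8% for PSMB10 and 19.9% for PSMD9. Reads in shared exons can be lost or split by the counting, so the values of these genes are uncertain, and the part of this in their levels was not tested. PSMC1 (75.8% of exon bases, with NRDE2), PSMD7 (30.7%), PSMB8 (20.6%), PSMA2 (20%), PSMC5 (19.5%), PSMG2 (16.7%), PSMG4 (15%) and PSMD1 (10.8%) overlap a gene of the opposite strand, whose reads can be told apart only by stranded counting.

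The genes of the core and regulatory particles (30 tested: 7 alpha, 6 beta, 9 base and 8 lid) were highest in siControl. The siControl mean was the highest of the 6 group means for 26 of the 30, and the siLong1 mean was the lowest for 20. Both siControl libraries lay above all 10 other libraries for 22 of the 30 (4 of 7 alpha, 4 of 6 beta, 8 of 9 base and 6 of 8 lid genes), as did 9.26% of all genes tested. The 8 exceptions were PSMA2, PSMA4, PSMA6, PSMB2, PSMB5, PSMC5, PSMD7 and PSMD14. Both siLong1 libraries lay below all others for 13 of the 30, as did 13.5% of all genes. In the libraries labelled siLong2, 4 of the 30 (PSMA2, PSMB1, PSMC3 and PSMC5) lay below all others and 1 (PSMB2) above (12.1% and 12.2% of all genes). Relative to each gene's mean over the 12 libraries, the median of the 30 genes was 0.21 (log2) in siControl, 0.05 in siTotal1, 0.01 in mock, -0.05 in the libraries labelled siLong2, -0.07 in siTotal2 and -0.14 in siLong1. The 30 genes also moved together from library to library: the median correlation of their log2 CPM over the 12 libraries was 0.709 for the 435 pairs of genes, with 428 above 0, while it was 0.036 for pairs among the 2229 genes with a mean of at least 100 CPM. These correlations describe 12 libraries that share group and composition, and no test was made of them.

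**Figure D1:**
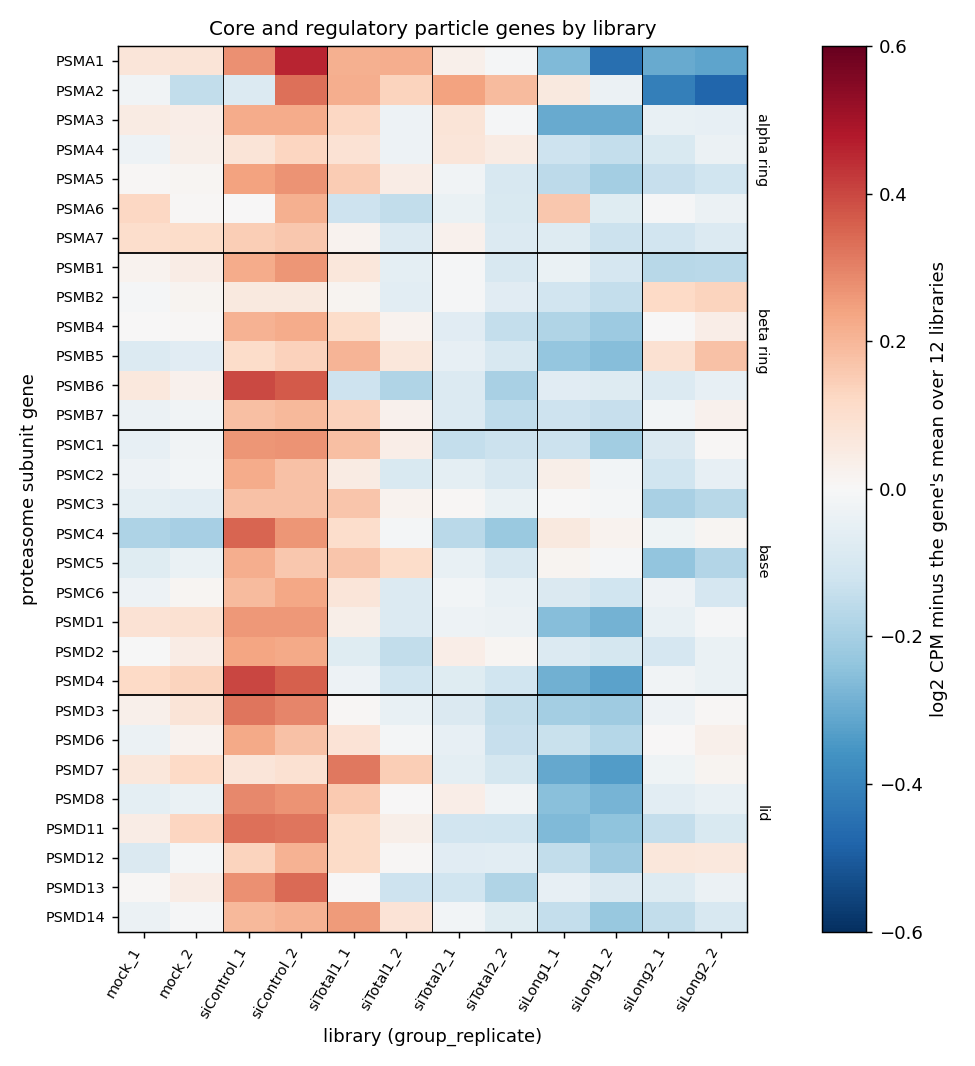
Log2 CPM of the 30 tested core and regulatory particle genes in each of the 12 libraries, minus the gene's own mean over the libraries (colour scale, red above and blue below), with genes in rows by class and libraries in columns by group. The siControl columns are the reddest, with a median of 0.21, and the siLong1 columns the bluest, with a median of -0.14.

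PSMB6 and PSMD4 show the pattern in single libraries. PSMB6, the caspase-like catalytic subunit, stood at 179 and 174 CPM in mock, 225 and 220.5 in siControl, 157 and 151 in siTotal1, 162 and 149.5 in siTotal2, 163 and 162 in siLong1 and 162 and 165.5 in the libraries labelled siLong2. Both siControl libraries were above the other 10, and mock came next. The NFYA siRNA groups overlapped within each target. All siTotal libraries (161.6 CPM at most) lay just below all siLong libraries (161.8 CPM at least). PSMD4, the ubiquitin receptor of the base, stood at 199 and 201.5 CPM in mock, 242 and 235 in siControl, 179.6 and 169 in siTotal1, 175 and 169 in siTotal2, 150.4 and 147 in siLong1 and 181 and 179 in the libraries labelled siLong2. For this gene siControl was again apart at the top and siLong1 apart at the bottom, with mock above all 8 libraries of the NFYA siRNAs. Within groups the genes also shared an order: replicate 1 was higher than replicate 2 for 29 of the 30 genes in siTotal1, 28 in siTotal2 and 29 in siLong1, and replicate 2 was higher for 24 in mock, 23 in the libraries labelled siLong2 and 17 in siControl. The median log2 difference (replicate 1 minus replicate 2) was 0.11 in siTotal1, 0.05 in siTotal2, 0.03 in siLong1, -0.01 in siControl, -0.02 in mock and -0.03 in siLong2 as labelled.

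Promoter sequence was examined because NF-Y recognises CCAAT and NRF1 recognises antioxidant response elements. RefSeq promoter windows (GRCh38.p14, 250 bases before to 50 after a start site) were found for 41 members. CCAAT, read on both strands, was present for 19 of the 41 genes (46.3%) and for 42.1% of all protein-coding genes with a window. TGACNNNGC, the core of the antioxidant response element, also read on both strands, was present for 14 of the 41 (34.1%) and for 17.9% of protein-coding genes. Of these 14, only 6 were core and regulatory particle genes, while 19 such genes with a window lacked it. The share of 34.1% thus does not describe the core and regulatory particle genes. The windows of 30 bases shown here, all on the gene's own strand and 5′ to 3′, are examples from genes described in the text, chosen after their values were seen, with the motif in capitals.
PSMA3 (chr14:58244812-58244841, plus strand): gttggcagttcagCCAATgagcgggcctgt
PSMA5 (chr1:109426486-109426515, minus strand): gaactactaccagCCAATaggaagcaggca
PSMC3 (chr11:47426537-47426566, minus strand): acgcgcgtgtcggCCAATagcggccccacc
PSMD7 (chr16:74296603-74296632, plus strand): gtgacggtacaggCCAATaccaggaggtca
PSMA4 (chr15:78540649-78540678, plus strand): cgtgggcacgaTGACTCTGCaccgcctcct
PSMD3 (chr17:39980759-39980788, plus strand): ttcccctttgtTGACTCGGCcatcggcctg
The CCAAT matches of PSMA3, PSMA5, PSMC3 and PSMD7 begin 18, 54, 114 and 198 bases before the start site, and the TGACNNNGC matches of PSMA4 and PSMD3 begin 126 and 37 bases before it. A match is a run of letters and does not show that a factor binds there. Among the core and regulatory particle genes with a window, the median log2 change in siTotal against siControl was -0.15 for the 14 with CCAAT (11 called lower) and -0.28 for the 11 without (11 called lower). In siLong against siControl these medians were -0.28 (13 called lower) and -0.31 (10 called lower). In mock against siControl both were -0.22 (10 called lower each). In siTotal against mock the medians were 0.03 with CCAAT (4 called higher and 1 lower) and -0.03 without (1 and 3), and in siTotal against siLong 0.14 (10 and 0) and 0.07 (5 and 1). For the 6 genes with TGACNNNGC and the 19 without, the medians were -0.23 (5 called lower) and -0.23 (17) in siTotal, -0.29 (6) and -0.31 (17) in siLong, and -0.23 (5) and -0.22 (15) in mock, all against siControl. These differences were not tested.

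With every NFYA transcript targeted (siTotal) and siControl as the reference, 4 of the 45 tested members were higher and 31 lower at an adjusted p under 0.05, against 22% and 22.2% of all genes tested. The median log2 change was -0.18 over the 45 and -0.23 over the 30 core and regulatory particle genes, of which 27 fell. By sequence, 22 of the 30 were lower in siTotal1 (20.5% of all genes) and 27 in siTotal2 (22.6%). Mock was below siControl too: mock against siControl called 4 members higher and 27 lower (19.5% and 20.3% of all genes), with 24 of the 30 lower and a median of -0.22. The comparisons with siControl share its 2 libraries, so they are not independent of each other. Among the 2229 genes with a mean of at least 100 CPM, which have depth like that of the subunits, 30.5% were called higher and 32.2% lower in siTotal, and 30.1% higher and 27.8% lower in mock, all against siControl. Of the 26 core and regulatory particle genes at that level, 24 were lower in siTotal and 22 in mock. With mock and siControl as 1 control group, 9 members were lower and 1 higher in siTotal, with a median of -0.10 over the 45.

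By class, 5 of 7 alpha, all 6 tested beta, all 9 base and 7 of 8 lid genes fell in siTotal against siControl. PSMB6 fell by 0.53 on the log2 scale (SE 0.04, edgeR's quasi-likelihood test, adjusted p = 5.6e-15) and by 0.34 in mock. PSMD4 fell by 0.46 (SE 0.03, adjusted p = 8.0e-14) and by 0.25 in mock. The structural beta subunits PSMB1 and PSMB4 fell by 0.27 and 0.23, and both by 0.21 in mock. In the lid, the structural subunits PSMD13, PSMD3 and PSMD11 fell by 0.41, 0.37 and 0.35, and by 0.28, 0.25 and 0.24 in mock. PSMC4, a base ATPase, stood at 163 and 161 CPM in mock, 236 and 222 in siControl, 199 and 184 in siTotal1, 165 and 159 in siTotal2, 193 and 188 in siLong1 and 182 and 187 in the libraries labelled siLong2. Here mock and siTotal2 were the lowest groups: PSMC4 fell by 0.38 in siTotal and by 0.50 in mock (SE 0.04, adjusted p = 4.5e-12). Among the alpha genes PSMA1 fell by 0.25, PSMA5 by 0.23 and PSMA6 by 0.21, and PSMA2 and PSMA4 did not pass, at 0.06 and -0.06. The lid subunit PSMD7, a partner of the deubiquitinase PSMD14, was at -0.00 (adjusted p = 0.94) in siTotal and at 0.01 in mock. For PSMB5, the chymotrypsin-like catalytic subunit, the fall was 0.09 (adjusted p = 0.04), and with mock and siControl as 1 control group the value turned to 0.0039.

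**Figure D2:**
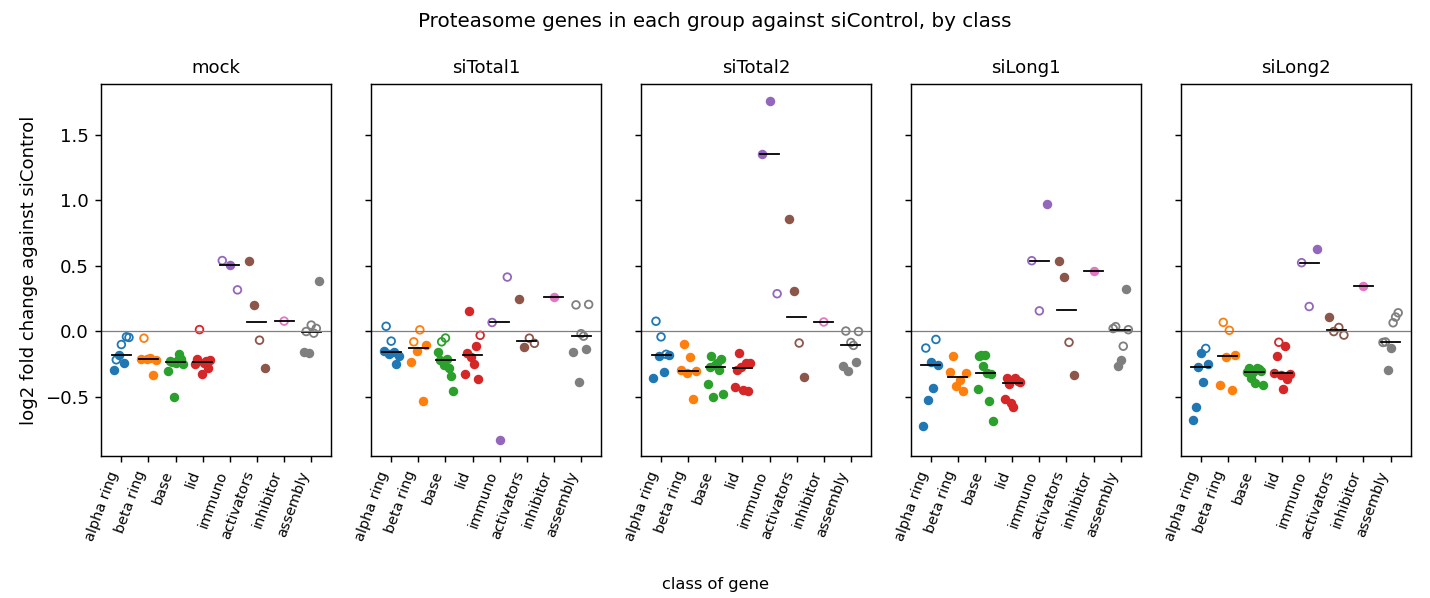
Log2 fold change of each tested proteasome gene against siControl in the other 5 groups (1 panel per group), by class along the horizontal axis, with filled points for genes called at an adjusted p under 0.05, open points for the others and a bar at the class median. The alpha, beta, base and lid genes lie mostly below 0 in all 5 panels, mock included, while the immunoproteasome points reach their highest in siTotal2.

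With the long transcripts targeted (siLong) and siControl as the reference, 5 members were higher and 31 lower, against 25.1% and 28.4% of all genes. The median was -0.26 over the 45 (-0.17 with mock and siControl as 1 control group) and -0.31 over the 30, of which 28 fell. Taken alone, siLong1 gave 28 of the 30 lower (28.1% of all genes were called lower) and the libraries labelled siLong2 gave 26 (26.9%). Among genes of at least 100 CPM 33.1% were higher and 38.6% lower in siLong, and 25 of the 26 core and regulatory particle genes at that level were lower. Without the libraries labelled siLong2, a choice made after the data were seen, the siLong counts were 5 higher and 31 lower. Mock, as given for siTotal, was also below siControl for 24 of the 30.

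The alpha subunit PSMA1 fell by 0.70 (log2; SE 0.05, edgeR's quasi-likelihood test, adjusted p = 5.5e-14), with siLong1 at -0.73 and siLong2 as labelled at -0.68, and by 0.29 in mock. It stood at 40.3 and 40.5 CPM in mock, 46.3 and 52.6 in siControl, 44.4 and 44.5 in siTotal1, 39.2 and 38.2 in siTotal2, 31.9 and 28.02 in siLong1 and 31.1 and 30.8 in the libraries labelled siLong2, with all 4 siLong libraries below the other 8, and is a gene whose exons are shared with another. PSMA5 and PSMA3 fell by 0.41 and 0.40. In the beta ring the falls were 0.45 for PSMB6, 0.36 for the structural subunit PSMB1 and 0.30 for PSMB4, a structural subunit that also guides ring assembly. In the base they were 0.55 for PSMD4, 0.41 for the scaffold PSMD1 and 0.37 for the ATPase PSMC1. In the lid they were 0.51, 0.44 and 0.42 for the structural subunits PSMD11, PSMD8 and PSMD3. PSMA6 and PSMB2 did not pass, at -0.10 and -0.06.

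With mock as the control the subunit genes moved less. In siTotal against mock 5 members were higher and 11 lower, against 16.6% and 14.2% of all genes, and the median was -0.02 (-0.07 without siTotal1 replicate 1, and -0.10 with mock and siControl as 1 control group). At 100 CPM and above, 4 of the 26 core and regulatory particle genes were higher and 7 lower, against 22.7% and 26.2% of all genes at that level. Scaled by DESeq2's size factors the counts were 3 higher and 12 lower. The assembly chaperones PSMG4, PSMG3 and PSMD10 fell by 0.28, 0.20 and 0.18, PSMG4 being a gene that was highest in mock. PSMD4, PSMB6 and the alpha subunit PSMA7 fell by 0.21, 0.19 and 0.14, the scaffold PSMD1 by 0.12 and the lid subunits PSMD13, PSMD3 and PSMD11 by 0.13, 0.12 and 0.11. The 5 higher genes, all of the core and regulatory particles (PSMA2, PSMB5, PSMC3, PSMC4 and PSMC5), had changes of 0.09 to 0.28 and adjusted p-values of 0.012 to 0.047, and 0 to 2 members were called higher when any library other than siTotal1 replicate 2 was left out (0 without either mock library, siTotal1 replicate 1 or siTotal2 replicate 1, with 2, 6, 2 and 2 at an unadjusted p under 0.05). The lower count was 6 without mock replicate 2.

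In siLong against mock 6 members were higher and 22 lower, against 24.4% and 26.4% of all genes, with a median of -0.09 (-0.17 with mock and siControl as 1 control group). Of the 30 core and regulatory particle genes 17 fell, 1 rose and the median was -0.10. PSMA1 fell by 0.41, PSMD4 by 0.29, PSMD11 by 0.27, PSMD7 by 0.26 and PSMD1 by 0.24 (log2), while PSMC4 rose by 0.21. Outside these classes PSMB10 rose by 0.48 and PSMD5 by 0.13, and PSMB9, PSMG4 and PSMG1, a chaperone of the alpha ring, fell by 0.33, 0.31 and 0.22. At 100 CPM and above, 1 of 26 was higher and 16 lower, against 31.6% and 38.3% of genes at that level. By siRNA, 22 of the 30 were lower in siLong1 against mock (26.1% of all genes) and 11 in the libraries labelled siLong2 (25%). The lower count over all members was 14 without mock replicate 2, and 23 without the libraries labelled siLong2.

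Between the NFYA targets, most of the called core and regulatory particle genes had their higher level in the siTotal mean. The single groups did not order by target. Relative to each gene's mean over the 12 libraries, the median of the 30 genes was -0.07 in siTotal2 and -0.05 in the libraries labelled siLong2. With each siRNA sequence as 1 replicate, 0 members were called higher and 0 lower in siTotal against siLong. In siTotal against siLong 20 members were higher and 7 lower, against 28.1% and 25.3% of all genes, and of the 30 core and regulatory particle genes 18 were higher and 2 lower, with a median of 0.08 (log2). At 100 CPM and above 16 of 26 were higher and 2 lower, against 36.3% and 34.2% of genes at that level. PSMA1 and PSMA2 were higher in siTotal by 0.45 and 0.41 (SE 0.04 and 0.09, edgeR's quasi-likelihood test, adjusted p = 8.1e-11 and 1.7e-04), both with shared exons. PSMD7 was higher by 0.24, PSMA3 by 0.22, PSMD14, the deubiquitinase, by 0.22 and PSMD8 by 0.20. The core and regulatory particle genes that were lower in siTotal were PSMB6 (-0.08) and PSMC4 (-0.09). Of the other members, PSMB10 (-0.45), PSMG3 (-0.40), the inhibitor PSMF1 (-0.24), PSMD5, a chaperone of base assembly (-0.18), and PSME2 (-0.11) were lower in siTotal, and PSME1 (0.23) and PSMG1 (0.12) higher. PSMB9 and PSMB8 did not pass, at 0.30 and 0.18. The count of lower members was 11 without siTotal1 replicate 1 and 4 without siTotal2 replicate 2.

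**Figure D3:**
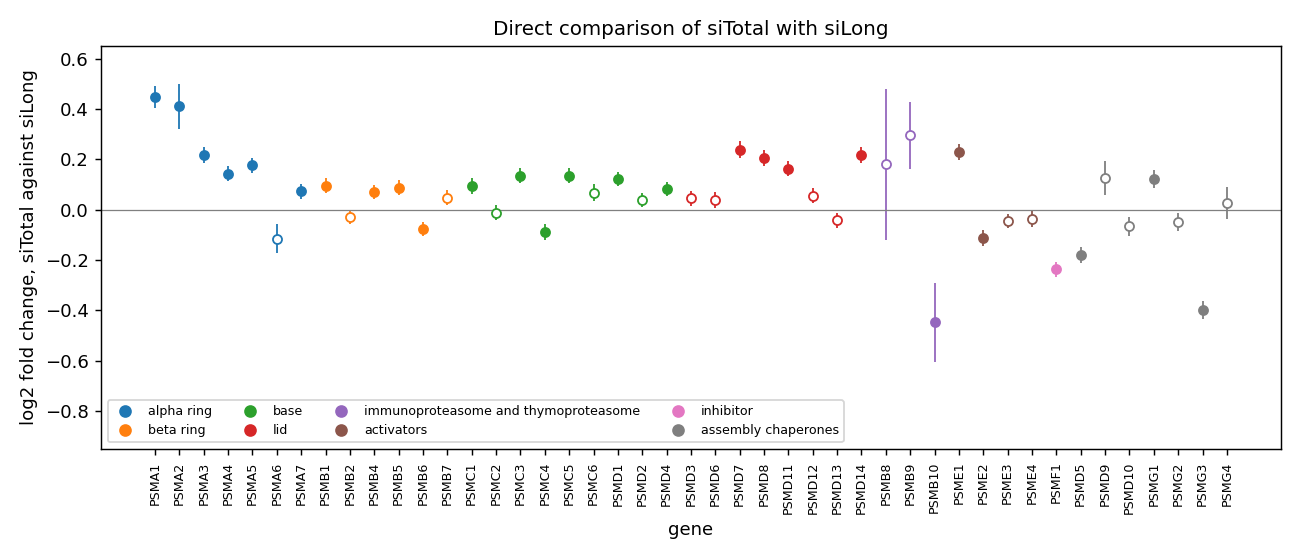
Log2 fold change of each tested proteasome gene in siTotal against siLong with its standard error (bars), in order of class, with filled points for genes called at an adjusted p under 0.05. Most alpha, beta, base and lid genes lie above 0 (18 of 30 called higher), and PSMB10, PSMG3 and PSMF1 lie below it.

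The siRNA sequences to the same target differed as well. In siTotal1 against siTotal2 18 members were higher and 5 lower, against 23.3% and 20.6% of all genes, and 15 of the 30 core and regulatory particle genes were higher and 1, PSMD2, lower. Among all genes of at least 100 CPM 43.6% were higher and 18.3% lower in siTotal1, and 14 of the 26 core and regulatory particle genes at that level were higher (1 was lower). The ATPases PSMC1 and PSMC4 were higher by 0.25 and 0.24, and PSMB5 and PSMD14 by 0.21 and 0.21. PSMD7 had the largest difference of the 30: it stood at 151 and 156 CPM in mock, 151 and 153 in siControl, 179 and 159 in siTotal1, 138 and 133.5 in siTotal2, 116 and 114 in siLong1 and 141 and 145.5 in the libraries labelled siLong2. Both siTotal1 libraries were above all others (8.67% of all genes) and both siLong1 libraries below all others, and the difference was 0.32 between the siTotal groups and -0.32 between the siLong groups (SE 0.05 each, edgeR's quasi-likelihood test, adjusted p = 3.6e-07 and 2.8e-07). In siLong1 against siLong2 8 members were higher and 17 lower, against 26.7% and 27% of all genes, with 3 and 14 among the 30. At 100 CPM and above 2 of 26 were higher and 14 lower, against 38.2% and 33.4% of genes at that level. PSMB5, at 174 and 171 CPM in siLong1 and 217.5 and 231 in the libraries labelled siLong2, was lower in siLong1 by a log2 difference of -0.38, and the ATPases PSMC5 and PSMC3 were the reverse, higher in siLong1 by 0.21 and 0.17. Without siTotal1 replicate 2, 3 members were lower in siTotal1 against siTotal2.

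Of the immunoproteasome genes, PSMB8 and PSMB9 were highest in siTotal2 and PSMB10 in siLong1. PSMB9, an interferon-induced catalytic subunit, stood at 2.88 and 3.20 CPM in mock, 2.08 and 2.18 in siControl, 1.03 and 1.37 in siTotal1, 7.56 and 6.92 in siTotal2, 1.95 and 2.78 in siLong1 and 2.34 and 2.52 in the libraries labelled siLong2. Both siTotal2 libraries lay above, and both siTotal1 libraries below, all others, patterns held by 6.61% and 6.16% of all genes tested. PSMB9 rose by 1.76 (log2; SE 0.16, edgeR's quasi-likelihood test, adjusted p = 7.5e-12) in siTotal2 against siControl and by 1.25 against mock, and fell by 0.83 and 1.33 in siTotal1, so that the siTotal sequences differed by -2.59 (SE 0.17, adjusted p = 1.0e-14). The rise in the siTotal mean against siControl (0.47) thus joined groups of opposite direction, and mock was also above siControl, by 0.51. PSMB8, its neighbour on chromosome 6, stood at 0.397 and 0.337 CPM in mock, 0.342 and 0.162 in siControl, 0.278 and 0.252 in siTotal1, 0.6925 and 0.613 in siTotal2, 0.339 and 0.397 in siLong1 and 0.418 and 0.311 in the libraries labelled siLong2, from 6 to 25 reads per library. The siTotal2 libraries were again the highest, at 1.36 against siControl (SE 0.41, adjusted p = 0.0059) and 0.81 against mock (adjusted p = 0.094). PSMB8 is not separate from PSMB9 here, as 20.6% of its exon bases lie opposite exons of PSMB9 or PSMB8-AS1. In siTotal2 PSMB8 had 25 and 24 reads, and PSMB9 had 273 and 271. Unless strands were separated, reads of PSMB9 could enter the PSMB8 count, and their part in the PSMB8 values was not tested. PSMB10, the remaining member of the trio, stood at 1.47 and 1.06 CPM in mock, 1.08 and 0.970 in siControl, 1.36 and 1.37 in siTotal1, 1.47 and 1.05 in siTotal2, 2.09 and 1.93 in siLong1 and 1.70 and 1.47 in the libraries labelled siLong2. Its highest libraries were those of siLong1, and it rose by 0.80 in siLong against siControl (SE 0.21, adjusted p = 0.0012), while siTotal2 was at 0.29 and mock at 0.32.

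**Figure D4:**
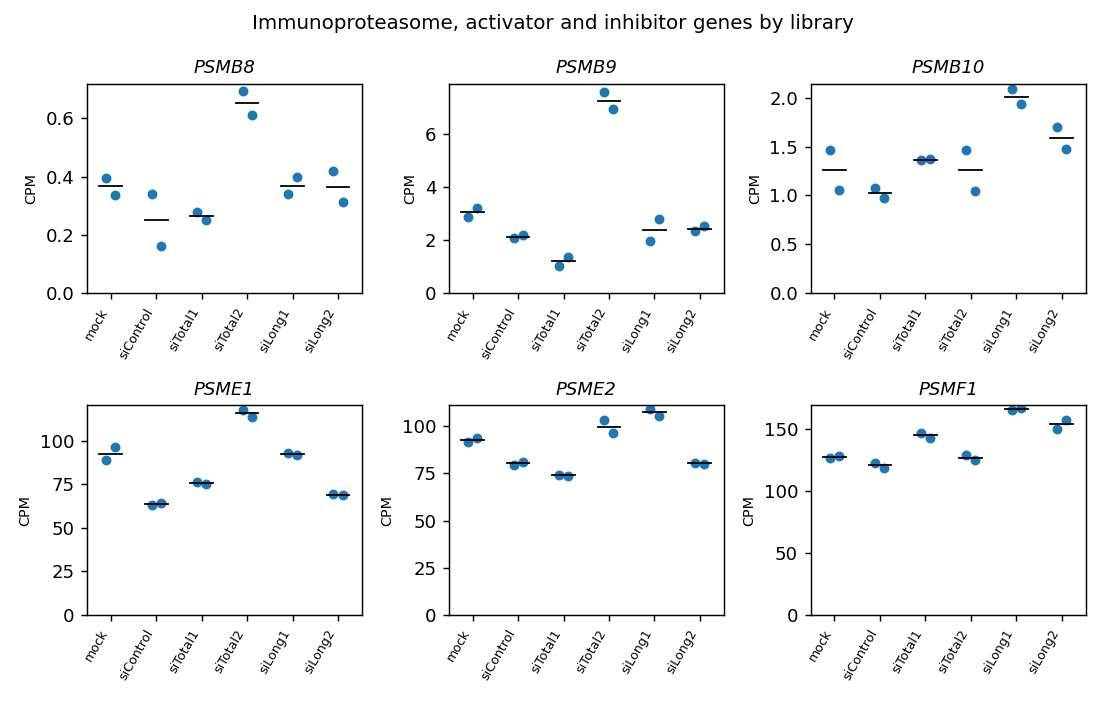
CPM of the immunoproteasome genes PSMB8, PSMB9 and PSMB10, the activator genes PSME1 and PSME2 and the inhibitor gene PSMF1 in each library (points, 2 per group) with the group mean (bar), on linear axes from 0. PSMB9 is highest in siTotal2 (7.56 and 6.92 CPM) and lowest in siTotal1 (1.03 and 1.37 CPM), and PSMF1 is highest in siLong1.

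Of the activators, PSME1 and PSME2 encode the interferon-inducible ring that opens the barrel, PSME3 a nuclear relative and PSME4 a large single-chain activator. PSME1 stood at 89.2 and 96.3 CPM in mock, 63.3 and 64.4 in siControl, 76.6 and 75.3 in siTotal1, 118 and 114 in siTotal2, 93.1 and 92.2 in siLong1 and 69.3 and 68.9 in the libraries labelled siLong2. The siTotal2 libraries were above and the siControl libraries below all others. PSME1 rose by 0.86 in siTotal2, 0.25 in siTotal1, 0.54 in siLong1, 0.11 in the libraries labelled siLong2 and 0.54 in mock against siControl (SE 0.05 each to 2 decimals, edgeR's quasi-likelihood test, largest adjusted p = 0.041). Against mock it rose in siTotal2 (0.32) and fell in siTotal1 (-0.29) and in the libraries labelled siLong2 (-0.42), with siLong1 at -0.00. PSME2 stood at 91.7 and 93.7 CPM in mock, 79.7 and 81.3 in siControl, 74.4 and 73.6 in siTotal1, 103 and 96.3 in siTotal2, 109 and 106 in siLong1 and 80.6 and 80.2 in the libraries labelled siLong2, highest in siLong1 and lowest in siTotal1. It differed by -0.43 between the siTotal groups and by 0.42 between the siLong groups (adjusted p = 6.1e-10 and 5.3e-10). PSME3 did not pass against siControl in siTotal, siLong or mock, at -0.07, -0.03 and -0.07. PSME4 fell by 0.22 in siTotal, 0.18 in siLong and 0.28 in mock, with both siControl libraries above the other 10.

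Fibroblast markers were checked beside the siTotal2 values. Their summed level was 42.6 and 44.5 CPM in siTotal2, 27.2 and 31.4 in siTotal1 and 26.3 and 45.1 in mock. Most of each sum was COL1A1, at 25.9 to 41.7 CPM over the 12 libraries and at 35.2 and 33.5 in siControl. The matrix gene DCN stood at 2.55 and 1.30 CPM in siTotal2, 2.10 in mock replicate 1 and 1.10 in replicate 2 of the libraries labelled siLong2. It was at or below 0.0565 CPM in the other 8 libraries, siControl included. Mock replicate 1 and mock replicate 2, where DCN had 0 reads, held PSMB9 at 2.88 and 3.20 CPM. The blood marker PTPRC had 0 reads in siTotal2. The part of such RNA in the siTotal2 values was not tested.

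PSMF1, which encodes an inhibitor of the core particle, stood at 126 and 128.5 CPM in mock, 123 and 119 in siControl, 147 and 143 in siTotal1, 129 and 125 in siTotal2, 165.5 and 167 in siLong1 and 149.8 and 157.5 in the libraries labelled siLong2. The siLong1 libraries were above and the siControl libraries below all others, as for 13.7% and 9.21% of all genes. It rose by 0.40 in siLong against siControl (log2; SE 0.04, edgeR's quasi-likelihood test, adjusted p = 5.6e-12) and by 0.33 against mock, with siLong1 at 0.38 and siLong2 as labelled at 0.27 against mock. In siTotal it rose by 0.17 against siControl and was at 0.09 against mock, with siTotal1 at 0.19 and siTotal2 at -0.01.

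Assembly chaperones, which build the rings and the base and leave the finished particle, moved apart from each other. Of the 7, in siTotal against siControl 3 fell and 0 rose, in siLong 2 fell and 1 rose, and in mock 2 fell and 1 rose. All genes were called lower in 22.2%, 28.4% and 20.3% of cases and higher in 22%, 25.1% and 19.5%, so the counts in siLong and mock are near the background. PSMG3, which helps to form the alpha ring, stood at 52.55 and 50.65 CPM in mock, 50.9 and 50.7 in siControl, 47.8 and 44.9 in siTotal1, 43.2 and 43.4 in siTotal2, 65.6 and 61.7 in siLong1 and 53.6 and 56.05 in the libraries labelled siLong2. Both siLong1 libraries lay above and both siTotal2 libraries below all others (5.78% of all genes lay below in siTotal2). It fell by 0.18 in siTotal and rose by 0.22 in siLong against siControl, with mock at 0.02. The difference between siTotal and siLong was -0.40 (SE 0.04, edgeR's quasi-likelihood test, adjusted p = 1.2e-11). Against mock, siLong1 rose by 0.30 and the libraries labelled siLong2 were at 0.09. PSMD10 fell by 0.34 in siTotal, 0.28 in siLong and 0.16 in mock. PSMD5 fell by 0.21 in siTotal and 0.16 in mock and was at -0.03 in siLong. PSMG4 was the only member with both mock libraries above the other 10 (15.9 and 14.8 CPM; 3.87% of all genes), while 0 members had both below (4.06%), and it rose there by 0.38 against siControl. PSMD9, PSMG1 and PSMG2 were at 0.10, -0.05 and -0.07 in siTotal, and PSMG1 fell by 0.17 in siLong.

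Summed over a class, base transcripts stood at 2535 ± 26.9 CPM in siControl (mean ± SD, n = 2), 2135 ± 24.0 in mock, 2142 ± 110 in siTotal1, 2068 ± 31.1 in siTotal2, 1999 ± 31.1 in siLong1 and 2024 ± 41.7 in siLong2 as labelled. Lid transcripts stood at 2102 ± 12.02 in siControl, 1790 ± 45.3 in mock, 1853 ± 108 in siTotal1, 1672 ± 33.9 in siTotal2, 1542 ± 25.5 in siLong1 and 1728 ± 26.2 in siLong2 as labelled. In both classes siControl was the highest group. In the base the other 5 groups lay closer to each other than to siControl, while in the lid they were spread from 1542 to 1853 CPM. The immunoproteasome genes summed to 9.15 ± 0.81 CPM in siTotal2, against 2.83 ± 0.24 in siTotal1, 3.40 ± 0.13 in siControl and 4.67 ± 0.10 in mock.

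For the gene lists that follow, the shares of all genes called higher and lower against siControl, given above, were 22% and 22.2% in siTotal, 25.1% and 28.4% in siLong and 19.5% and 20.3% in mock. Of 10 genes of bound proteins and assembly factors, 1 rose and 7 fell in siTotal, 1 rose and 7 fell in siLong and 1 rose and 8 fell in mock, all against siControl. POMP, the maturation factor of the barrel, fell by 0.20, 0.46 and 0.22, and PAAF1, which holds base ATPases apart from the barrel, rose by 0.49, 0.54 and 0.39. Of 8 genes of ubiquitin shuttles and substrate extraction, 6, 8 and 6 fell and 1, 0 and 1 rose. NPLOC4, a cofactor of the segregase VCP, fell by 0.47, 0.67 and 0.45. Of 5 genes for ubiquitin and its activating enzyme UBA1, 2 rose and 1 fell in siTotal, 1 rose and 1 fell in siLong and 0 rose and 1 fell in mock. With 5 genes, these counts are too small to be told from the shares of all genes.

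A list of 6 genes held NFE2L1, its pathway genes DDI2, NGLY1, SYVN1 and MAFG, and NFE2L2, which encodes the separate factor NRF2. Of the 6, 4 fell and 0 rose in siTotal against siControl. In siLong 5 fell and 1 rose, and in mock 5 fell and 0 rose, also against siControl. Of all genes, 22.2%, 28.4% and 20.3% fell in these comparisons. NFE2L1 itself stood at 292 and 296 CPM in mock, 319.8 and 319.9 in siControl, 347 and 332.5 in siTotal1, 302 and 306 in siTotal2, 236 and 238 in siLong1 and 317 and 316.5 in the libraries labelled siLong2. It was lowest in siLong1, where it fell by 0.43, and was at 0.01 in siTotal and -0.01 in the libraries labelled siLong2. MAFG, whose product pairs with NRF1 on DNA, stood at 76.1 and 78.2 CPM in mock, 123 and 125 in siControl, 87.2 and 88.6 in siTotal1, 73.2 and 75.3 in siTotal2, 79.1 and 81.1 in siLong1 and 80.6 and 82.3 in the libraries labelled siLong2. Like most subunit genes it was highest in siControl, and it fell by 0.62 in siTotal, 0.62 in siLong and 0.68 in mock. DDI2, the protease that activates NRF1, fell by 0.55 in siTotal1 and was at 0.01 in siTotal2. NGLY1, the deglycosylase that also acts on NRF1, rose by 0.32 in siLong.

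Of 7 genes of interferon signalling and antigen presentation, 5, 6 and 3 rose and 0 fell in siTotal, siLong and mock against siControl, where 22%, 25.1% and 19.5% of all genes rose. TAP1, a peptide transporter subunit, lies head to head with PSMB9 on chromosome 6, with RefSeq start sites at 32853704 and 32854192 (GRCh38.p14), 488 bases apart. TAP1 stood at 47.8 and 49.7 CPM in mock, 42.6 and 43.0 in siControl, 41.3 and 41.0 in siTotal1, 59.4 and 55.3 in siTotal2, 70.55 and 69.9 in siLong1 and 100.2 and 104.5 in the libraries labelled siLong2, highest in the libraries labelled siLong2, where PSMB9 was at 2.34 and 2.52. In siTotal2 against siTotal1, PSMB9 was higher by more than TAP1, whose difference in siTotal1 against siTotal2 was -0.48 (SE 0.05, edgeR's quasi-likelihood test, adjusted p = 8.9e-10). NLRC5, an activator of antigen presentation genes, rose by 0.79 in siTotal2 and was at 0.14 in siTotal1. It was high in the siLong groups too, where PSMB9 was not. The NLRC5 means were 14.1 CPM in siLong1, 13.1 in siTotal2 and 12.75 in the libraries labelled siLong2. In mock, siTotal1 and siControl they were 9.86, 8.34 and 7.56 CPM. B2M, the invariant chain of class I molecules, rose by 0.57 in siTotal and 0.62 in siLong, by 0.47 and 0.52 against mock, and was at 0.10 in mock against siControl.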

How the data were processed

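Polyadenylated RNA of HCT116 cells was sequenced in 12 libraries, grouped by sample titles. The authors deposited raw counts of reads per Ensembl gene; STAR 2.4.0f1, featureCounts and the hg19 build are named per the submitters' processing notes. For annotation release, strand setting and read filters: not given in the sources used here. No column belonged to other samples. Library totals of 35604197 to 49746637 reads set the precision. Genes passing filterByExpr (minimum count 10, minimum total 15; 17730 genes) were TMM-scaled, and edgeR 4.0.16 under R 4.3.3 fitted the robust quasi-likelihood model to all 6 groups (6 residual degrees of freedom, biological coefficient of variation 3.57%), siTotal and siLong each being the mean of their siRNA groups. P-values were adjusted by Benjamini-Hochberg over all tested genes and called under 0.05. CPM are TMM-scaled. On simulated counts for siLong against siControl (17305 genes), 68% of genes changed 1.2-fold and 100% changed 1.5-fold were recovered, with 9 of 193 calls false. Duplicates lay farther apart than counting noise (1.88 to 7.90 chi-square units for each degree of freedom) and were kept separate.

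Symbols, lengths and overlaps come from GENCODE 29 (GRCh38), matched by identifier, and promoter windows from RefSeq (GRCh38.p14); no hg19 coordinate is used. Members and gene lists were chosen with earlier results of these data known. Any member could be named; per class and comparison the text names up to 3 called members with the largest changes in each direction, all immunoproteasome, activator and inhibitor genes, and of other lists up to 4 called genes. Alternatives were DESeq2 1.42.0, its size factors, no filter, a replicate block, pooled controls, each siRNA sequence as 1 replicate, leaving out each library, and, added after the data were seen, leaving out the libraries labelled siLong2.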

Additional observations from a re-analysis of the deposited data

How the results depend on the processing

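Counts of called members are given here as higher and lower. With mock and siControl as 1 control group, siTotal had 1 higher and 9 lower and siLong 3 higher. With the controls kept apart, in the fit of 6 groups, siTotal had 4 and 31 and siLong 5 higher against siControl. Against mock, 5 were higher in siTotal and 6 in siLong. When a sequence stood for 1 replicate, edgeR called 0 higher and 0 lower in siTotal against siControl or mock (0 and 1 at an unadjusted p under 0.05), 0 and 0 in siLong against siControl or mock (1 and 4) and 0 and 0 in siTotal against siLong (1 and 1); this compares 2 sequences with 2 controls. DESeq2 gave 2 higher in siTotal against siControl and 1 higher in siTotal against mock, DESeq2's size factors 3 and no filter 1 in the latter; the cause was not tested. Leaving out 1 library at a time gave 2 to 4 higher and 28 to 33 lower in siTotal against siControl (2 without either siControl library or siTotal1 replicate 2), 5 and 30 to 32 in siLong against siControl, 0 to 7 and 6 to 15 in siTotal against mock, 4 to 6 and 14 to 24 in siLong against mock, 14 to 23 and 4 to 11 in siTotal against siLong, 3 to 4 and 26 to 28 in mock against siControl, 12 to 22 and 3 to 6 in siTotal1 against siTotal2, and 6 to 10 and 12 to 18 in siLong1 against siLong2. The median change of the members in siTotal1 against siTotal2, 0.09, was 0.02 without siTotal1 replicate 1 and 0.05 without siTotal2 replicate 2. Without the libraries labelled siLong2, chosen after seeing the data, siTotal against siLong gave 20 and 6.

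Single genes that turned with pooled controls were PSMB5 (0.0039) and PSME2 (-0.0112) in siTotal against siControl, PSMC3 (-0.0226), PSMC4 (-0.1499) and PSMC5 (-0.0382) in siTotal against mock, and PSMC4 (-0.0614), PSME1 (0.0297) and PSME4 (-0.0493) in siLong against mock. With each sequence as 1 replicate they were PSMB5 (0.0058) in siTotal against siControl, PSMC3 (-0.0239), PSMC4 (-0.1483), PSMC5 (-0.0363) and PSME2 (0.0036) in siTotal against mock, and PSMC4 (-0.0620), PSME1 (0.0499) and PSME4 (-0.0393) in siLong against mock; both settings change the control group by construction. PSME4 turned to -0.0564 in siLong against mock without the libraries labelled siLong2.

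Replicate numbers did not pair the libraries over all groups: over 15 pairs of groups the correlation of same-numbered deviations ran from -0.255 to 0.23, with 5 above 0.1. Among those 5 were all pairs of siTotal1, siTotal2 and siLong1 (0.191, 0.227 and 0.13). The fit with the replicate number as a block gave the same counts (31 lower in siTotal and in siLong against siControl) except 17 higher, not 18, in siTotal1 against siTotal2. Depth limits PSMB8, with 174 reads in all.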

Other observations

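PSMC3IP and PSME3IP1 begin like subunit symbols but encode other proteins. PSMC3IP, which encodes a meiotic recombination factor, fell by 1.13 on the log2 scale in siLong against siControl (SE 0.05, edgeR's quasi-likelihood test, adjusted p = 5.0e-20), by 0.42 in siTotal and by 0.56 in mock. PSME3IP1, which encodes a partner of the PSME3 activator, fell by 0.57 in siLong (SE 0.04, adjusted p = 9.5e-14) and was at 0.04 in siTotal and -0.03 in mock. Against mock PSME3IP1 fell by 0.68 in siLong1 and by 0.39 in the libraries labelled siLong2, while PSME3 itself was at 0.04 in siLong against mock.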
